A study of Rattus norvegicus with 19 samples.

Results

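Transcripts of 3 genes, Poteml2, Dnajb3 and Mmgt1, were followed over the livers of a dose series of DE-71, a commercial flame retardant mixture of pentabromodiphenyl ethers. They were taken as every probe set whose platform symbol, or current symbol by gene ID, is one of these names. This gave 4 probe sets of the 31042 tested and 3 genes of the 14217 with a probe set of 1 symbol: 1379411_at for Poteml2, 1390520_at for Dnajb3, and 1376168_at and 1395325_s_at for Mmgt1. The genes were picked from their dose differences on these arrays, so those differences are given as a description, with standard errors and no test.

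Timed-mated Wistar Han dams received corn oil, or DE-71 in corn oil, by gavage every day from gestation day 6 to postnatal day 4. All groups shared the strain, the corn oil, the diet and the schedule, and the dose was 0 (vehicle), 0.1, 15 or 50 mg/kg per day. RNA of the left lateral liver lobe of postnatal day 4 was read on 5, 5, 4 and 5 Rat230_2 arrays in that order, with 1 log2 signal per probe set and array. The labels do not say whether the arrays of a group came from separate animals or litters, and p-values here cover only the spread among these arrays.

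Mmgt1 encodes EMC5, a subunit of the endoplasmic reticulum membrane protein complex (EMC), which inserts membrane-spanning segments of newly made proteins into that membrane. Its other name, membrane magnesium transporter 1, comes from ion transport measured in frog oocytes. Dnajb3 encodes a J domain protein. J domain proteins hand client proteins to HSP70 chaperones and start their ATP cycle, and in mouse Dnajb3 is known from male germ cells. Poteml2 is named after the POTE ankyrin domain family, described in primates, and the role of the rat gene is not given in the annotation used here. Cyp1a1, the monooxygenase that the aryl hydrocarbon receptor (AhR) switches on in liver, was set beside them as the reference response.

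The 250 bases before the annotated start of Poteml2 and of Dnajb3 are shown. They come from the RefSeq promoter table of build GRCr8, in which Poteml2 and Dnajb3 were matched by symbol. That table has no entry for Mmgt1, so no Mmgt1 window was searched. The Poteml2 window is chr16:19983276-19983525 on the plus strand and the Dnajb3 window is chr9:96244359-96244608 on the minus strand. Capitals mark a match to any of the 4 motifs searched.
Poteml2: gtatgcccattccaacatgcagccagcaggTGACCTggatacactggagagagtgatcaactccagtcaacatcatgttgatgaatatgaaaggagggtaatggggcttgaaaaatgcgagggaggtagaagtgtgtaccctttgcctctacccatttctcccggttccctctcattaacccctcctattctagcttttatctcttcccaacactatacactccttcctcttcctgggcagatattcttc
Dnajb3: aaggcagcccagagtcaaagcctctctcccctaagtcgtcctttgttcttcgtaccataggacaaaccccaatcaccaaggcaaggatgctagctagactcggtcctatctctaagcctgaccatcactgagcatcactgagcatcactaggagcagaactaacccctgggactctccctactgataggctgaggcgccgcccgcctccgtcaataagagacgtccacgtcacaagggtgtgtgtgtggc

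Both strands were searched for GCGTG (the core that AhR and ARNT bind), TGACNNNGC (the core of the NRF2 element), AGGTCA (a hexamer of nuclear receptors) and GAANNTTC (a heat shock element core). AGGTCA matched once, on the reverse strand of the Poteml2 window, 220 bases before the start. The other 3 motifs had no match in either window, and AGGTCA had none in the Dnajb3 window. Of 33469 windows of this length, 25.9% held GCGTG, 10.1% TGACNNNGC, 14.1% AGGTCA and 7.23% GAANNTTC. The share of G and C was 47.2% in the Poteml2 window and 54.8% in the Dnajb3 window, against a median of 51.2% over all windows.

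Before the members, some facts of the whole series bear on them. The array labelled 0.1 mg/kg replicate 1 stood apart from its label: its Cyp1a1 level was 14.06 against 7.19 to 8.42 on the other 0.1 mg/kg arrays. Over all probe sets its mean correlation was 0.9903 with the 50 mg/kg arrays and 0.9894 with those of 15 mg/kg. It was 0.986 with the other 0.1 mg/kg arrays and 0.9821 with the vehicle arrays. Vehicle replicate 2 and 0.1 mg/kg replicate 2 were the most alike of all pairs of arrays, although in different groups: their correlation over all probe sets was 0.9986 and the SD of their log2 differences 0.128, against 0.9966 and 0.197 for the next pair. Whether they hold RNA of 1 liver was not tested. The descriptions carry a running array number, not explained in the labels, and 4 of the 5 arrays of 50 mg/kg are among the 7 numbered up to 8. The mean level of 7 hepatocyte markers lay between 14.55 and 14.64 on every array, and Afp, the fetal counterpart of albumin, at 14.47 to 14.70. These levels are near the highest value of the data, 15.058. Differences can be compressed there, so the markers say little of how even the tissue was. The labels give the sex as female, while Y-linked Eif2s3y read 9.55 to 10.07 and Xist 3.88 to 4.29 on all arrays.

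Poteml2 had the widest spread between arrays of the 3 genes and the largest difference at the top dose. On the vehicle arrays, replicates 1 to 5, its log2 level was 6.58, 5.97, 5.63, 5.23 and 4.39. At 0.1 mg/kg, replicates 1 to 5, the log2 level was 8.24, 5.93, 5.30, 5.20 and 5.75. Only replicate 1 lay above the vehicle arrays. At 15 mg/kg, replicates 2 to 5, the level was 7.27, 6.71, 5.88 and 6.93. At 50 mg/kg it was 9.03, 7.98, 8.17, 7.38 and 7.13 for replicates 1 to 5. Every 50 mg/kg array was above every vehicle array, while 1 array of 15 mg/kg fell within the vehicle range.

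The mean level of Poteml2 was 5.56 ± 0.821 (SD, n = 5) with vehicle, 6.08 ± 1.24 (n = 5) at 0.1, 6.70 ± 0.593 (n = 4) at 15 and 7.94 ± 0.743 (n = 5) at 50 mg/kg. The difference from vehicle was 2.38 (SE 0.524, 5.19-fold) at 50 mg/kg, with a 95% interval of 1.27 to 3.48. It was 1.14 (SE 0.556, 2.2-fold) at 15 mg/kg, with an interval of -0.03 to 2.30 that includes 0. The spread behind that interval includes 0.1 mg/kg replicate 1, without which the SE was 0.415, and with the array number as a covariate the difference was 1.28 (SE 0.35). In bulk liver, more RNA per cell and more cells of a type that makes it cannot be told apart. At 0.1 mg/kg the difference was 0.52 (SE 0.524), and without replicate 1 it was -0.02 (SE 0.415), with a group mean of 5.54 ± 0.35 (n = 4). Without vehicle replicate 2 the difference at that dose was 0.63, and without 0.1 mg/kg replicate 2 it was 0.56.

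Dnajb3 was tight among the vehicle arrays and stood higher on every array of the 15 and 50 mg/kg groups. Its vehicle levels, replicates 1 to 5, were 5.09, 5.67, 5.01, 5.65 and 5.20. The levels at 0.1 mg/kg were 7.22, 5.77, 5.34, 5.19 and 5.67, again with replicate 1 above the rest. The levels at 15 mg/kg, replicates 2 to 5, were 7.02, 6.26, 5.95 and 7.31, which all exceed the highest vehicle array. The 50 mg/kg arrays read 6.86, 7.21, 8.02, 7.67 and 7.39, and their range overlaps that of 15 mg/kg.

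For Dnajb3 the group means were 5.32 ± 0.31 (n = 5) with vehicle, 5.84 ± 0.807 (n = 5) at 0.1, 6.63 ± 0.635 (n = 4) at 15 and 7.43 ± 0.442 (n = 5) at 50 mg/kg. Against vehicle, 50 mg/kg differed by 2.10 (SE 0.337, 4.3-fold, 95% interval 1.40 to 2.81) and 15 mg/kg by 1.31 (SE 0.357, 2.48-fold, 0.56 to 2.06). The 0.1 mg/kg group differed by 0.51 (SE 0.337), and by 0.17 (SE 0.268) without replicate 1. Without vehicle replicate 2 or 0.1 mg/kg replicate 2 it was 0.60 and 0.53. Between 15 and 50 mg/kg the difference was 0.79 (SE 0.357).

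Mmgt1 was a well-expressed transcript with little spread and with smaller differences from vehicle than Poteml2 or Dnajb3, and its 2 probe sets ran in parallel. The set with the higher mean, 1395325_s_at, read 10.27, 9.66, 10.04, 9.81 and 9.70 on the vehicle arrays. At 0.1 mg/kg it read 10.91, 9.69, 10.13, 10.20 and 10.05, and only replicate 1 exceeded the vehicle range. The 15 mg/kg arrays, replicates 2 to 5, gave 11.01, 10.99, 10.85 and 10.48, and the 50 mg/kg arrays gave 11.01, 11.40, 10.97, 11.08 and 11.24. The vehicle arrays all lay below both of these groups, which overlap each other. The set 1376168_at ran from 9.10 to 9.96 on vehicle arrays, from 10.01 to 10.62 at 15 mg/kg and from 10.42 to 10.76 at 50 mg/kg.

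The level of Mmgt1 reached most of its difference at 15 mg/kg. Its mean by 1395325_s_at was 9.90 ± 0.257 (n = 5), 10.20 ± 0.442 (n = 5), 10.83 ± 0.244 (n = 4) and 11.14 ± 0.176 (n = 5) in the order of dose. The difference from vehicle was 0.94 (SE 0.189, 1.91-fold) at 15 mg/kg and 1.25 (SE 0.179, 2.37-fold, 95% interval 0.87 to 1.62) at 50 mg/kg. By 1376168_at the same differences were 0.92 (SE 0.216, 1.89-fold) and 1.09 (SE 0.204, 2.13-fold). The step from 15 to 50 mg/kg was 0.31 (SE 0.189) and 0.18 (SE 0.216), and both 95% intervals, -0.09 to 0.71 and -0.28 to 0.63, include 0. At 0.1 mg/kg the sets differed from vehicle by 0.30 (SE 0.179) and 0.22 (SE 0.204), and by 0.12 (SE 0.145) and 0.01 (SE 0.165) without replicate 1. Without vehicle replicate 2 or 0.1 mg/kg replicate 2 they differed by 0.24 and 0.43 by 1395325_s_at, and by 0.12 and 0.37 by 1376168_at.

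**Figure D1:**
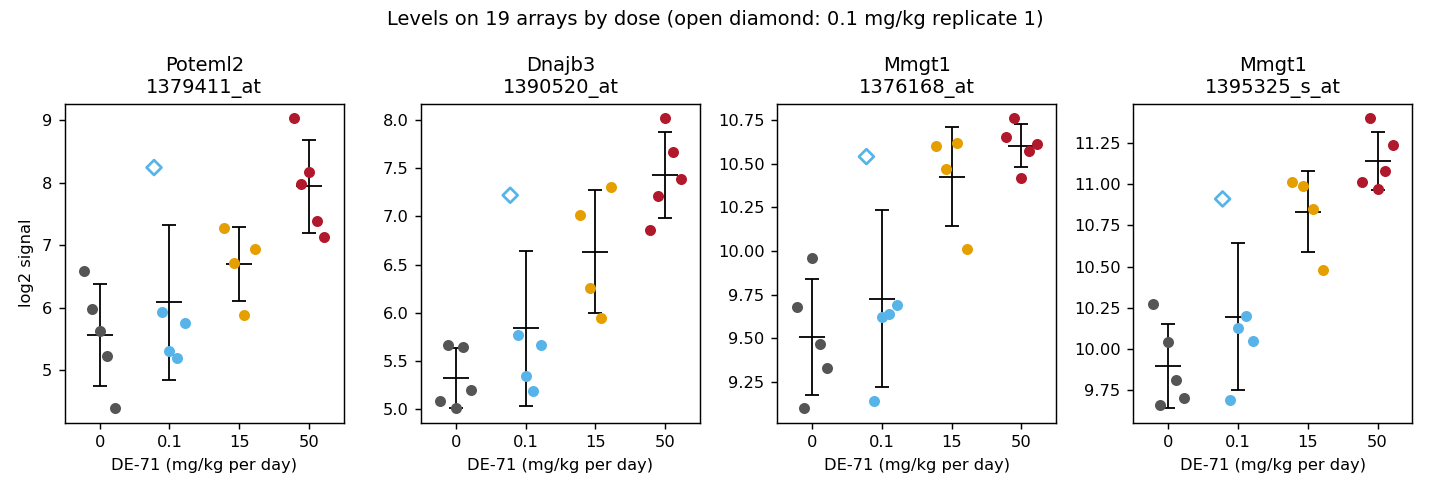
Log2 signal of the 4 member probe sets in each dose group, 1 point per array, with bars for the group mean and SD and an open symbol for 0.1 mg/kg replicate 1. All 5 arrays of 50 mg/kg lie above the vehicle arrays in every panel, and the open symbol lies with the higher doses.

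In the order of mean levels, vehicle and 0.1 mg/kg were lowest and overlapped in all 4 probe sets, 15 mg/kg was next and 50 mg/kg was highest. The step from 15 to 50 mg/kg was 1.24 (SE 0.556) for Poteml2 and 0.44 (SE 0.427) with early and late arrays fitted as blocks, where that of Dnajb3 was 0.52 (SE 0.372) and those of the Mmgt1 sets were -0.03 (SE 0.215) for 1376168_at and 0.11 (SE 0.179) for 1395325_s_at. The order of the higher doses therefore turned for 1376168_at in that fit. At 50 mg/kg, 4 of 4 probe sets had all arrays above all vehicle arrays, as had 3.21% of all probe sets. For 15 mg/kg it was 3 of 4, against 2.21% of all probe sets, and Poteml2 was the exception. At 0.1 mg/kg it was 0 of 4, against 0.148%. Between 50 and 15 mg/kg it was also 0 of 4, against 1.84%. The members were picked for these contrasts, so nothing is read from the counts. The 3 comparisons with vehicle share the same vehicle arrays. Of all probe sets, 0.0193% had a larger rise at 50 mg/kg than Poteml2, 0.0258% than Dnajb3, and 0.18% and 0.126% than the Mmgt1 sets 1376168_at and 1395325_s_at.

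The array number moved with the dose groups and with Poteml2. Its vehicle level was highest on the vehicle array with the lowest number and lowest on that with the highest number. With the 7 early arrays, numbered up to 8, and the 12 late ones fitted as blocks, the difference of Poteml2 at 50 mg/kg was 1.51 (SE 0.414) in place of 2.38. Under the same block Dnajb3 differed by 1.80 (SE 0.361), and the Mmgt1 sets by 0.87 (SE 0.208) and 1.02 (SE 0.174).

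Within the early arrays, with 1 vehicle array and 4 of 50 mg/kg, Poteml2 stood 1.56 higher at 50 mg/kg, Dnajb3 2.34, and the Mmgt1 sets 0.92 and 0.84. Within the late arrays, with 4 vehicle arrays and 1 of 50 mg/kg, the differences were 1.82, 2.01, 1.14 and 1.44 in the same order. For 15 mg/kg the late arrays, with 3 of that dose, gave 1.20, 1.12, 0.90 and 0.97, and the 1 early array of that dose stood 0.69, 1.92, 0.92 and 0.73 above the early vehicle array. Every one of these differences had the direction of the pooled one. The members were picked from their dose differences on these same arrays, so nothing is read from that direction.

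**Figure D2:**
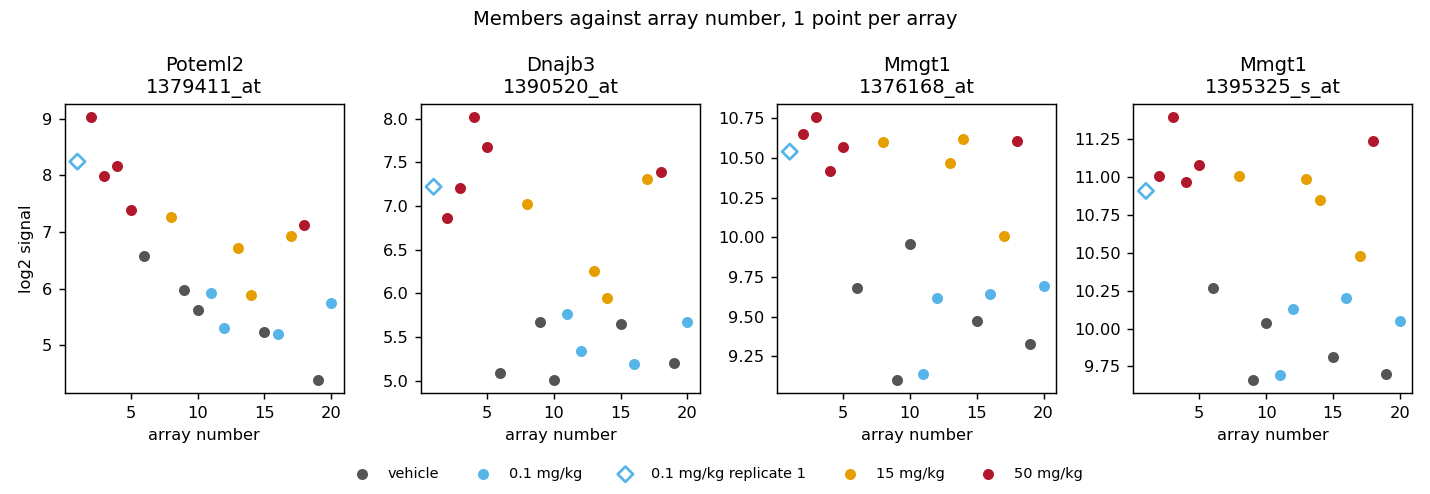
Log2 signal of each member probe set against the running array number of the descriptions, coloured by dose group. Vehicle levels of Poteml2 run from 6.58 on array 6 to 4.39 on array 19, and 4 of the 5 arrays of 50 mg/kg are numbered up to 8.

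Transcripts of other tissues differed between arrays of a group. The mean of 9 skeletal muscle markers ran from 4.40 to 11.68 on vehicle arrays, from 4.31 to 5.29 at 0.1, from 4.87 to 8.23 at 15 and from 4.57 to 10.19 at 50 mg/kg. The mean of 9 exocrine pancreas markers ran from 5.42 to 8.16, 5.51 to 8.18, 5.54 to 7.75 and 5.39 to 5.57 in that order. With both means as covariates, Poteml2 differed from vehicle by 2.47 at 50 mg/kg, Dnajb3 by 2.29, and the Mmgt1 sets by 0.86 and 1.08. Without the 5 arrays whose muscle mean was over 3 above its median, the differences were 2.23, 1.86, 1.10 and 1.28, and no pancreas mean passed that limit, so arrays with pancreas means up to 8.18 stayed in. The mean of 4 neutrophil markers ran from 11.94 to 12.90 on vehicle arrays and from 11.63 to 12.39 at 50 mg/kg, where 1 of the 4 fell past the test and 0 of 6 erythroid markers passed, against 2.23% of all genes. Their part in the differences of the members was not tested.

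Male germ cells are where Dnajb3 is known in mouse. The mean of 14 measured testis germ cell markers lay between 4.45 and 4.70 on the arrays, with Odf2 at a mean of 8.74, Ldhc at 6.69 and the sperm protamines Prm1 and Prm2 at 3.61 and 4.21. The limma fit used p-values adjusted by Benjamini and Hochberg's method across the whole array and a threshold of 0.05. At 50 mg/kg 0 of the 14 passed, against 2.23% of all genes. An unadjusted p under 0.05 was found for 2 of the 14 and for 2455 of 14217 genes.

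Cyp1a1 was the reference for the response. Its vehicle levels were 7.10, 7.57, 7.97, 7.43 and 8.36, and at 50 mg/kg it read 14.30, 14.11, 14.22, 14.13 and 14.24. At 15 mg/kg it read 14.17, 13.34, 13.68 and 13.16. The arrays thus fell into a low and a high cluster, and 0.1 mg/kg replicate 1 lay in the high one. The difference at 50 mg/kg was 6.51 (SE 0.864, 91.3-fold, limma adjusted p = 0.00123), and without the 5 arrays high in muscle transcripts it was 6.56 (limma adjusted p = 0.171). At 15 mg/kg it was 5.90 (SE 0.917, 59.7-fold, limma adjusted p = 0.0724), and the adjusted p was 2.18e-09 without 0.1 mg/kg replicate 1 and 0.0351 without 0.1 mg/kg replicate 2. It also passed 0.05 with the array number (limma adjusted p = 0.0129), the early and late block (0.017), the muscle and pancreas covariates (0.0443) and without probe sets of low level (0.0354). In all, the call at 15 mg/kg passed in 6 of 28 alternatives. Without the 5 arrays high in muscle transcripts its limma adjusted p was 0.813. With a trend and robust variance prior it was 0.111, and with a replicate block 0.079.

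On 0.1 mg/kg replicate 1 the members were high together with Cyp1a1. Poteml2 read 8.24 there, above all 4 arrays of 15 mg/kg, and Dnajb3 read 7.22, within the range of 50 mg/kg. The Mmgt1 sets read 10.54 and 10.91, the first within the range of 50 mg/kg and the second within that of 15 mg/kg.

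**Figure D3:**
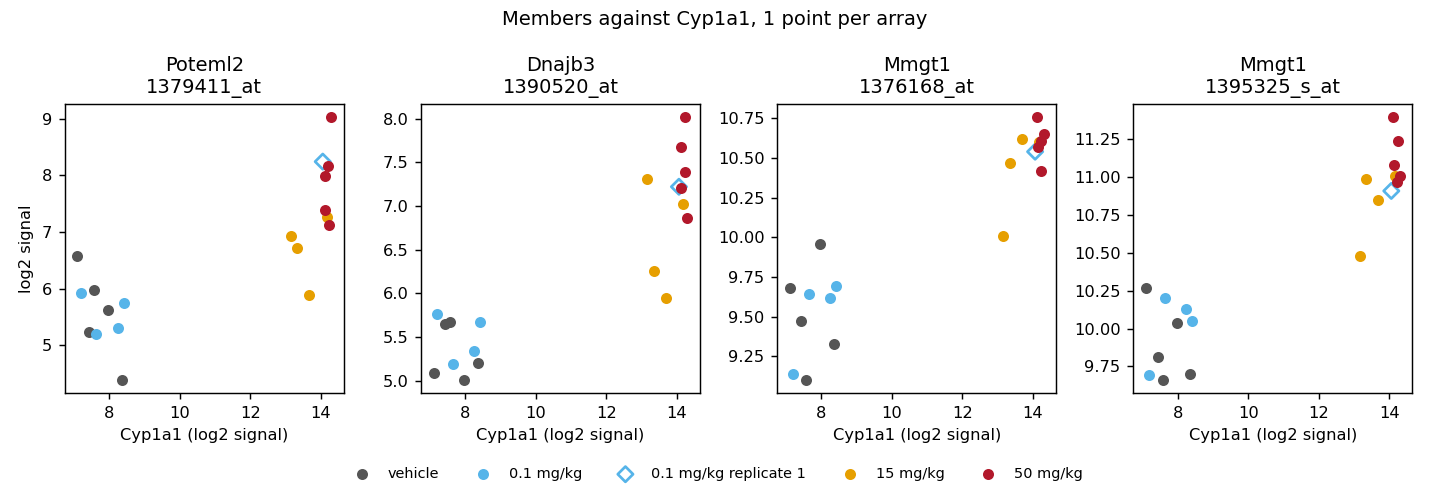
Log2 signal of each member probe set against that of Cyp1a1, 1 point per array, coloured by dose group. The arrays form a low and a high Cyp1a1 cluster, and the open symbol of 0.1 mg/kg replicate 1 lies in the high one.

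Since the arrays cluster, the relation to Cyp1a1 was taken separately over the 10 arrays labelled vehicle or 0.1 mg/kg and the 9 labelled 15 or 50 mg/kg, giving 8 relations. The lower doses hold the closely alike vehicle and 0.1 mg/kg replicates 2 as separate points. In the lower doses Pearson's r with Cyp1a1 was 0.722 for Poteml2 (permutation p = 0.0959, adjusted over 8 relations 0.11), and Spearman's rho was -0.103 (permutation p = 0.783, adjusted 0.783). Dnajb3 gave r = 0.865 (permutation p = 0.0645, adjusted 0.101) and rho = 0.285 (permutation p = 0.429, adjusted 0.499). These values rest on 0.1 mg/kg replicate 1. Without it r was -0.609 for Poteml2 and -0.139 for Dnajb3, and without the 2 arrays farthest from the median of Cyp1a1 it was -0.435 and -0.428.

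The Mmgt1 sets gave r = 0.796 for 1376168_at (permutation p = 0.0209, adjusted 0.0937) and r = 0.785 for 1395325_s_at (permutation p = 0.0469, adjusted 0.0937) in the lower doses. Their rho was 0.479 (permutation p = 0.165, adjusted 0.474) and 0.285 (permutation p = 0.426, adjusted 0.499). Without the 2 farthest arrays r was 0.486 and 0.383, and without 0.1 mg/kg replicate 1 alone it was 0.296 and 0.0261. The relation of Mmgt1 in the lower doses therefore rested on that array as well.

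In the 15 and 50 mg/kg arrays Poteml2 gave r = 0.63 (exact permutation p = 0.0754, adjusted 0.101) and rho = 0.7 (exact permutation p = 0.0433, adjusted 0.346). Dnajb3 gave r = 0.457 (exact permutation p = 0.206, adjusted 0.206) and rho = 0.3 (exact permutation p = 0.437, adjusted 0.499). The Mmgt1 sets gave r = 0.696 (exact permutation p = 0.0354, adjusted 0.0937) and 0.699 (exact permutation p = 0.0315, adjusted 0.0937), with rho = 0.383 (exact permutation p = 0.312, adjusted 0.499) and 0.5 (exact permutation p = 0.178, adjusted 0.474). Cyp1a1 and the members all had higher means at 50 than at 15 mg/kg, so these p-values also reflect that step between doses. The members were picked from their dose differences, so nothing is read from these p-values. With dose group means taken out r was 0.191 for Poteml2, -0.0638 for Dnajb3, and 0.632 and 0.425 for the Mmgt1 sets. Without the 2 farthest arrays r was 0.812 for Poteml2, 0.728 for Dnajb3, and -0.151 and 0.402 for the Mmgt1 sets. None of the 8 relations, of the lower or the higher doses, passed 0.05 after adjustment, and nothing is read from that either. All tests were two-sided.

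The genes most like each member over all 19 arrays were ranked by Pearson's r of log2 levels, as a description: the arrays share dose groups and 0.1 mg/kg replicate 1. Nearest to Poteml2 were Ddc (aromatic amino acid decarboxylase, r = 0.92), the quinone reductase Nqo1 (0.907), the proteasome subunits Psma5 (0.906) and Psma1 (0.895), and the glutathione transferase Gsta4 (0.891). Nearest to Dnajb3 were the lysosomal protease Ctsl (0.901), Cyp1a1 (0.883), the monooxygenase Cyp3a23-3a1 (0.882), Psma1 (0.88) and Tmem205 (0.88). Nearest to Mmgt1 were the glucuronosyltransferases Ugt2b10 (0.947) and Ugt2b1 (0.939), Tex2 (0.939), the lysosomal mannosidase Manba (0.938) and the monooxygenase Cyp2a3 (0.935). Among 14216 genes Cyp1a1 ranked 91 for Poteml2 (r = 0.791), 2 for Dnajb3 and 7 for Mmgt1 (r = 0.927).

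With the dose group means taken out, the nearest genes were others in most cases. For Poteml2 they were Micos13 (r = 0.874), the nuclear receptor Rora (0.868) and again Ddc (0.836). For Dnajb3 they were Nsfl1c (0.828), Tbc1d22al (0.807) and the autophagy receptor Sqstm1 (0.802). For Mmgt1 they were again Manba (0.874), then the mitochondrial ribosome subunit Mrps7 (0.87) and Cyp2c13 (0.868).

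The members were also set against each other. Over 19 arrays r was 0.822 between Poteml2 and Dnajb3, 0.795 between Poteml2 and Mmgt1 (1395325_s_at) and 0.791 between Dnajb3 and Mmgt1. With dose group means taken out the values were 0.549, 0.506 and 0.197. The 2 Mmgt1 sets kept r = 0.908 after that step, from 0.968 before it.

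The place of each gene in the RefSeq table of GRCr8 gave neighbours to compare. Dnajb3, on the minus strand of chromosome 9, lies within the Ugt1a locus, which encodes glucuronosyltransferases that conjugate bilirubin and xenobiotics, and 7 Ugt1a genes overlap it. For 6 of them the table of promoters gives the plus strand. Whether the Dnajb3 probes also read Ugt1a RNA was not tested. Both probe sets of the locus are annotated to 8 Ugt1a genes and cannot be named as 1 gene. Over 19 arrays r with 1370613_s_at was 0.835 for Dnajb3, 0.899 for Poteml2, and 0.87 and 0.903 for Mmgt1 by 1376168_at and 1395325_s_at. With dose group means taken out it was 0.436, 0.755, 0.711 and 0.725 in that order. Dnajb3, the member at this locus, had the lowest r both times.

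Both Ugt1a probe sets rose at 50 mg/kg, where 1.61% of all probe sets passed in either direction. The set 1370613_s_at read 13.26 to 13.39 on vehicle arrays and 13.70 to 13.93 at 50 mg/kg, with no overlap. Its difference was 0.51 (SE 0.087, 1.42-fold, limma adjusted p = 0.00684), beside 2.10 for Dnajb3. The sizes cannot be compared, since the Ugt1a set reads several genes and lies near the top of the data, where differences can be compressed. The set 1387759_s_at differed by 0.66 (SE 0.137, 1.58-fold, limma adjusted p = 0.0213). At 15 mg/kg the differences were 0.26 (limma adjusted p = 0.448) and 0.32 (limma adjusted p = 0.487). Blocked by early and late number, the values at 50 mg/kg were 0.38 (limma adjusted p = 0.0532) and 0.51 (limma adjusted p = 0.148), and without the 5 arrays high in muscle transcripts they were 0.51 (limma adjusted p = 0.284) and 0.59 (limma adjusted p = 0.4). The second set also lost its call without vehicle replicate 1, 2 or 5 or without 50 mg/kg replicate 1, with limma adjusted p from 0.0504 to 0.0684.

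**Figure D4:**
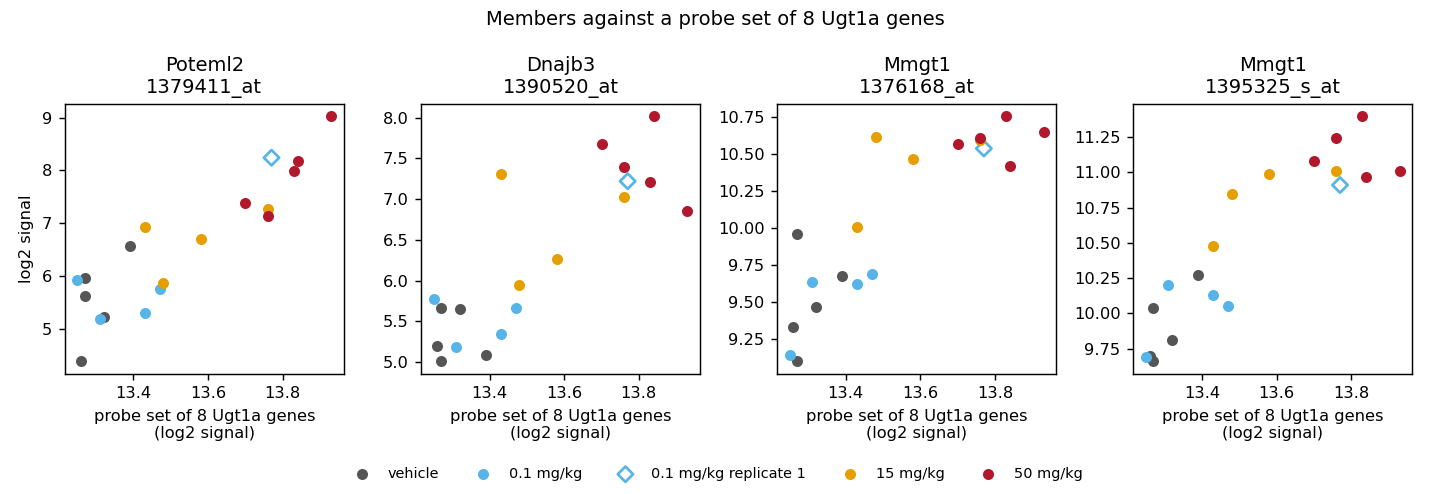
Log2 signal of each member probe set against that of 1370613_s_at, which is annotated to 8 Ugt1a genes, 1 point per array, coloured by dose group. The Ugt1a axis spans 13.25 to 13.93, and 0.1 mg/kg replicate 1 lies at 13.77, among the arrays of 50 mg/kg.

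The other neighbours with a probe set did not pass. Hjurp, a histone chaperone of centromeres that lies beyond Ugt1a1, differed by 0.11 at 50 mg/kg (limma adjusted p = 0.64). Around Mmgt1 on the X chromosome, the 3 probe sets of Ints6l differed by -0.31, -0.27 and -0.29 (limma adjusted p = 0.36, 0.324 and 0.277). Fhl1, a LIM domain protein of muscle, differed by -0.36, -0.16 and 0.17 (limma adjusted p = 0.818, 0.929 and 0.518). The 6 neighbours of Poteml2 on chromosome 16 had 0 probe sets.

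The rest of the EMC did not move with Mmgt1 past the test. Of its 10 measured members, counting the close copy Mmgt2, 0 passed at 50 mg/kg by limma, against 2.23% of all genes. An unadjusted p under 0.05 was found for 2 of the 10 and for 2455 of 14217 genes. The median difference of the 10 was 0.09, beside 0.01 over all genes. Emc1, the largest subunit, differed by 0.22 (SE 0.0797, limma adjusted p = 0.182), Emc7 by 0.18 (limma adjusted p = 0.375) and Emc6 by 0.16 (limma adjusted p = 0.312). Emc9 differed by 0.11, Emc2 by 0.10, Emc4 by 0.08, Emc3 by 0.06, Mmgt2 by 0.06, Emc8 by 0.03 and Emc10 by -0.07. At 15 mg/kg 0 of 10 passed and 1 had an unadjusted p under 0.05.

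The DNAJB family had a median difference of 0.08 at 50 mg/kg. Of its 11 measured members besides Dnajb3, 1 passed there, against 2.23% of all genes. It was Dnajb11, a cochaperone of the HSP70 of the endoplasmic reticulum, which rose by 0.53 (SE 0.126, 1.44-fold, limma adjusted p = 0.0426). The call was lost without vehicle replicate 1, 2, 4 or 5, 0.1 mg/kg replicate 3, 15 mg/kg replicate 4 or 50 mg/kg replicate 1, 2, 4 or 5, with limma adjusted p from 0.051 to 0.128 and 0 of 11 members passing. Dnajb9, another J domain protein of that compartment, differed by 0.27 (SE 0.156, limma adjusted p = 0.429). Dnajb1, the classic heat shock member, differed by -0.07 (limma adjusted p = 0.739).

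Of 20 measured HSP70 and HSP90 chaperones and partners, 2 rose at 50 mg/kg, 0 fell and 18 did not pass. Of all genes, 2.23% passed in either direction. An unadjusted p under 0.05 was found for 7 of the 20 and for 2455 of 14217 genes. Hsph1, a nucleotide exchange factor of HSP70, rose by 0.80 (SE 0.178, 1.74-fold, limma adjusted p = 0.0317). Hspa13, an HSP70 relative, rose by 0.43 (SE 0.0916, 1.35-fold, limma adjusted p = 0.0255). The median difference of the 20 was 0.11, beside 0.01 over all genes. Hsp90b1, the HSP90 of the endoplasmic reticulum, differed by 0.31 (limma adjusted p = 0.0502) and the mitochondrial Hspa9 by 0.29 (limma adjusted p = 0.105). Hspa5 differed by 0.29 (limma adjusted p = 0.133) and the cytosolic Hspa1a by -0.10 (limma adjusted p = 0.84). The call of Hsph1 was lost without vehicle replicate 1, 2, 4 or 5 or 50 mg/kg replicate 1, 2 or 4 (limma adjusted p from 0.0568 to 0.0868), and that of Hspa13 without vehicle replicate 2, 4 or 5 or 50 mg/kg replicate 1, 2 or 5 (0.0546 to 0.0725), so the list's count ran from 0 to 3 over the arrays left out. Blocked by early and late number, Dnajb11 had a limma adjusted p of 0.211, Hsph1 0.179 and Hspa13 0.148. In the 0.1 and 15 mg/kg groups 0 members of any of these lists passed by limma, as 0 of 14217 genes did, while 281 and 1411 genes had an unadjusted p under 0.05.

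**Figure D5:**
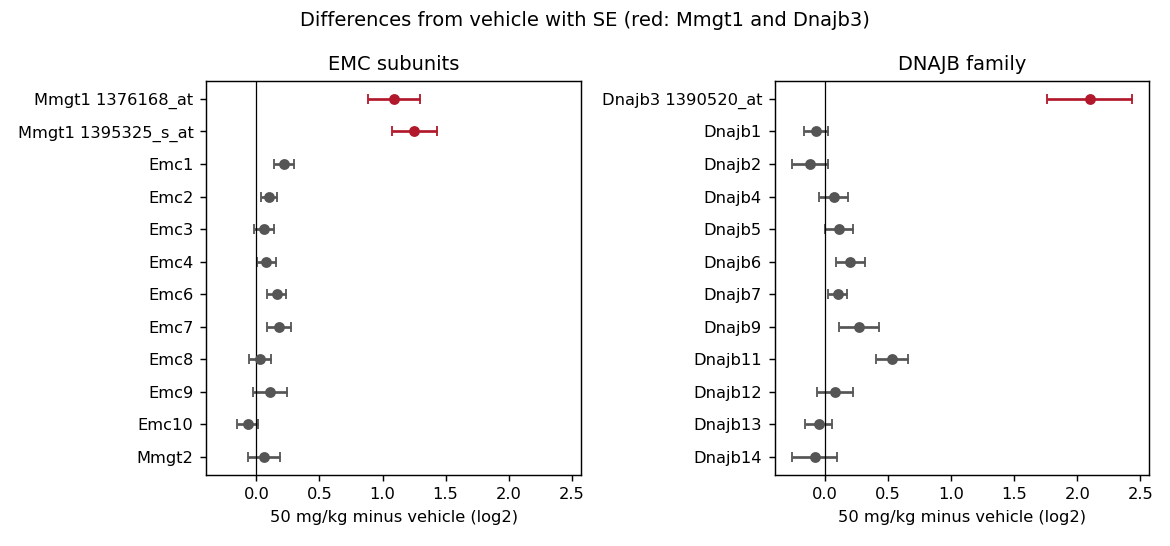
Difference from vehicle at 50 mg/kg (log2) of Mmgt1 beside the measured EMC genes and of Dnajb3 beside the measured DNAJB genes, with bars for the standard error of limma. The Mmgt1 sets at 1.09 and 1.25 and Dnajb3 at 2.10 lie above the genes drawn beside them, the highest of which is Dnajb11 at 0.53.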

How the data were processed

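The deposited log2 signals were made by the authors with RMA (robust multi-array average), per the submitters' processing notes, with the version not given in the sources used here. This method subtracts background, quantile normalizes arrays and summarises the probes of a set, which can compress differences at low signals and near the top of the range. Array medians lay between 6.049 and 6.16. Of 31099 probe sets, 57 controls were left out. The platform annotation gave 20826 of the rest 1 symbol, 436 several and 9780 none, and 20758 were matched to RefSeq by gene ID. Each gene was read from the probe set of highest mean level.

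One mean per dose group was fitted over all 19 arrays with limma 3.58.1 in R 4.3.3 (two-sided moderated test, Benjamini-Hochberg adjustment over 31042 probe sets, 15 residual and 2.78 prior degrees of freedom), and the script was tested on simulated data. Permutations (100000, or exact under 10 arrays) used scipy 1.17.1. The number of arrays limits the precision. Replicate numbers were not taken to pair the arrays, since same-numbered arrays did not all deviate together. Alternatives were other normalizations, filters, variance priors, covariates, blocks, fits of the compared groups alone, mean probe sets, group medians and each array left out.

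Members and lists were chosen with earlier results of these data known. Named were the members, Cyp1a1, by r the 5 genes most like each member and the 3 most like it without dose means, all EMC subunits, the called members of the DNAJB and HSP lists (otherwise the 2 largest differences), and the genes next to each member. Dnajb1, Dnajb9, Hsp90b1, Hspa5, Hspa9, Hspa1a, Odf2, Ldhc, Prm1, Prm2, Eif2s3y and Xist were added after their values were seen.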

Additional observations from a re-analysis of the deposited data

Results flagged for a closer look

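In the 0.1 mg/kg group the array labelled replicate 1 lay far from the other 4 arrays for Poteml2, at 8.24 with the nearest array at 5.93. It did so for Dnajb3, at 7.22 with the nearest at 5.77, and for Cyp1a1, at 14.06 with the nearest at 8.42. The gap to the nearest array took 0.76, 0.715 and 0.822 of the whole range of the group in that order. Chance sets 1 array apart in this way in about 1 in 20 groups. That rate was not computed from these data, and all of these flags concern the same array.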

How the results depend on the processing

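The log2 differences of the members from vehicle at 15 and 50 mg/kg kept their sign and moved by less than the pooled SD within dose groups under all 27 alternatives of each. That SD includes 0.1 mg/kg replicate 1, and the move of Poteml2 from 2.38 to 1.51 under the early and late block exceeds the SD of the vehicle arrays, 0.821. At 50 mg/kg they ran from 1.51 to 2.63 for Poteml2, from 1.80 to 2.29 for Dnajb3, from 0.86 to 1.21 for Mmgt1 by 1376168_at and from 1.02 to 1.34 by 1395325_s_at. The step from 15 to 50 mg/kg ran from 0.44 to 1.44, 0.44 to 1.02, -0.03 to 0.25 and 0.11 to 0.37 in the same order. With each array left out in turn the differences at 50 mg/kg ran from 2.08 to 2.63, 1.96 to 2.25, 0.99 to 1.21 and 1.18 to 1.34. Leaving out an array of a group not compared cannot change a difference of group means, so those alternatives returned the main value.

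The DNAJB count of 1 at 50 mg/kg became 0 with the array number as a covariate, the early and late block, the muscle and pancreas scores, without the 5 arrays high in muscle transcripts, and with only the compared groups in the fit. It ran from 0 to 1 with arrays left out. The HSP count of 2 became 0 with the array number, with the block and without the muscle-high arrays, and 1 with the scores, and it ran from 0 to 3 with arrays left out. The count of 2 Ugt1a probe sets became 1 with the array number and with the scores, 0 with the block and 0 without the muscle-high arrays, and it ran from 1 to 2 with arrays left out. These settings fit fewer arrays or more terms, and some also moved the estimates. Under the early and late block 1370613_s_at differed by 0.38 in place of 0.51. Dnajb11 differed by 0.42 with the scores and by 0.56 without the muscle-high arrays, in place of 0.53. A replicate block, which also adds terms, kept the calls of Dnajb11, Hsph1 and Hspa13. The cause of the lost calls was not tested. No EMC member passed under any alternative.

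The relation to Cyp1a1 in the lower doses turned to -0.435 for Poteml2 and -0.428 for Dnajb3 without the 2 farthest arrays, and to -0.609 and -0.139 without 0.1 mg/kg replicate 1. In the higher doses it turned to -0.0638 for Dnajb3 over deviations from dose group means, and to -0.151 for Mmgt1 (1376168_at) without the 2 farthest arrays. The cause was not tested.

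Without 0.1 mg/kg replicate 1, chosen after seeing the data, 11 probe sets passed at 15 mg/kg in place of 0, and 616 at 50 mg/kg in place of 499. Same-numbered arrays had correlations of their deviations from -0.534 to 0.889 over 27 pairs, the highest between vehicle and 0.1 mg/kg replicates 2, and 6 of 19 arrays correlated best with their own number. With a replicate block, 511 probe sets passed at 50 mg/kg, and Poteml2 differed by 1.49 (SE 0.304) at 15 and 2.38 (SE 0.282) at 50 mg/kg, Dnajb3 by 2.10 (SE 0.365) and Mmgt1 by 1.09 (SE 0.189) and 1.25 (SE 0.168). Signal over background was not part of the files used here, so the arrays give no detection call for a low level such as that of Dnajb3 on vehicle arrays.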
